A study of Mus musculus with 52 samples.

Results

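Pou5f1 and Sall4 encode transcription factors of the core pluripotency network of mouse embryonic stem cells (mESCs). The data described here are the enhancers that the deposited region tables place around these 2 genes. The transcription start site (TSS) of each gene was taken from the deposited gene table, and an enhancer was assigned to a gene when its centre lay within 100 kb of that TSS. This rule found 17 enhancers among the 25370 of both enhancer tables. Of these, 14 came from the table of epiblast-like cell (EpiLC) enhancers, with 4 at Pou5f1 and 10 at Sall4, and 3 came from the table of mESC enhancers, with 1 at Pou5f1 and 2 at Sall4. Both genes were chosen by name.

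The study mapped chromatin by immunoprecipitation and sequencing in 52 libraries, 9 of EpiLCs and 43 of mESCs, which fall into 34 groups of 1 or 2 libraries by cell type, antibody and genotype. The genotypes were cK27R clones, in which lysine 27 of canonical histone H3 alone was mutated, pK27R clones, in which it was mutated in all H3, further SUZ12KO, H3-3KO and pK27WT lines, and the control line ABE, all in a C57BL6/129Sv background. The mESCs were kept without feeders in LIF with the 2 inhibitors known as 2i, which hold them in the naive state, and EpiLCs were harvested after 48 hours of differentiation, a culture step that moves cells towards the formative epiblast. In the deposited region tables used here 0 columns hold values of single libraries. They describe where enhancers were called in cells of earlier publications, and not how any genotype of the series differs from control.

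The 2 enhancer tables were made in different laboratories and by different criteria. Per the series' design text, EpiLC enhancers were peaks positive for H3K27ac, H3K4me1 and p300, and mESC enhancers came from a separate publication. As background, that publication built its mESC set on sites bound by OCT4, SOX2 and NANOG, so the product of Pou5f1 took part in defining it. Each table is a single list with no replicate, and the cell state, the laboratory and the calling criteria cannot be told apart in any difference between them. No test was therefore run, and each value of the 2 genes is given beside the same value over the whole table.

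OCT4, the POU-homeodomain protein made from Pou5f1, binds the octamer sequence, often as a pair with SOX2 on a composite element, and is required for the inner cell mass and for the pluripotent state in both mESCs and EpiLCs. SALL4 is a zinc finger protein of the spalt family that binds AT-rich DNA, recruits the NuRD deacetylase complex and is needed for early embryonic growth and for stable mESCs. Pou5f1 is a classic case of an enhancer switch: earlier work by others describes a distal enhancer used in naive cells and germ cells and a proximal enhancer, nearer to the TSS, used in the epiblast.

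The sequences that follow were chosen because they carry the words discussed later or lie at a TSS. They are from the GRCm38.p6 assembly, read 5′ to 3′ on the strand given, which is the strand of the gene. Capitals mark exact matches, on either strand, to the words for SOX2-OCT4, octamer, octamer variant, ESRRB, KLF, SP/KLF or TEAD sites defined below. In the Sall4 intron and in the Sall4 EpiLC enhancer without mESC overlap, the capitals are the octamer variant. The first lies in the mESC enhancer upstream of Pou5f1, which the EpiLC enhancer there contains.
Pou5f1 upstream, shared stretch, chr17:35503933-35504141, plus strand: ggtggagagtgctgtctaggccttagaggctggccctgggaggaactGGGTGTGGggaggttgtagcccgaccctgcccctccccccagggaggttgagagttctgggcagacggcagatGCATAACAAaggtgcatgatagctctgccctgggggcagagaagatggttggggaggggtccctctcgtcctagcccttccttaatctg
Pou5f1 promoter, RefSeq, EpiLC enhancer outside the mESC one, chr17:35505782-35506081, plus strand: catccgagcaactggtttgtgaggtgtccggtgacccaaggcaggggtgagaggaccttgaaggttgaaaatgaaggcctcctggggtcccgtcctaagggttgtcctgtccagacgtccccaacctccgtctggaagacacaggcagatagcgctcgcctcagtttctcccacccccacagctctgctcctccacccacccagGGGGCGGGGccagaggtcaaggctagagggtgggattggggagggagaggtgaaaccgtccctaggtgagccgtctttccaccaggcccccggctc
Pou5f1 octamer, EpiLC enhancer, coding exon, chr17:35509943-35510030, plus strand: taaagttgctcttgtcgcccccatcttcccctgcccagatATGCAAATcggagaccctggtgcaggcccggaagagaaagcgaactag
Pou5f1 downstream, same EpiLC enhancer, chr17:35511357-35511445, plus strand: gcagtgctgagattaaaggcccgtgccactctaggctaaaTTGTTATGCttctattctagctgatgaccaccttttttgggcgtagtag
Pou5f1 distal downstream EpiLC enhancer, chr17:35549217-35549305, plus strand: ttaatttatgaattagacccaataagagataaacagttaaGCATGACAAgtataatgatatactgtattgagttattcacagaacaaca
Pou5f1 upstream EpiLC enhancer, chr17:35485888-35485976, plus strand: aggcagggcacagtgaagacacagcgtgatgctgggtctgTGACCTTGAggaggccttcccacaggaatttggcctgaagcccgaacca
Sall4 intron, shared stretch, chr2:168764660-168764767, minus strand: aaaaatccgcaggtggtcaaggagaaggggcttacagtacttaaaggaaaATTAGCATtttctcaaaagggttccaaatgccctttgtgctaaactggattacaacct
Sall4 EpiLC enhancer without mESC overlap, chr2:168807173-168807280, minus strand: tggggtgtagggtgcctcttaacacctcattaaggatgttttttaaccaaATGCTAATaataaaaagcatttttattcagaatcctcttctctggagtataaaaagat
Sall4 upstream, shared stretch, chr2:168783422-168783529, minus strand: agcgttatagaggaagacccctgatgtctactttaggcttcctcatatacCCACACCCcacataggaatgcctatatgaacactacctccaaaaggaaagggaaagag
Sall4 distal pair, shared stretch, chr2:168840166-168840293, minus strand: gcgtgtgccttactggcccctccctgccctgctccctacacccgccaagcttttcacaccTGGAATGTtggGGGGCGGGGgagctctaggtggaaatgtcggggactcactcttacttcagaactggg

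Pou5f1 lies on chromosome 17 at chr17:35506032-35510777 on the plus strand. Its central EpiLC enhancer ran from 5705 bp upstream to 5869 bp downstream of the TSS, at chr17:35500327-35511901, and so covered 100% of the 4746 bp gene body. With 11575 bp it was the 144th longest of the 16576 EpiLC enhancers, and 0.863% of them were longer. The single mESC enhancer, at chr17:35502267-35505490, had 3224 bp and ran from 3765 to 542 bp upstream of the TSS. It covered 0% of the gene body, did not reach the TSS and lay wholly inside the EpiLC enhancer, of which it made up 27.85%. Thus the same stretch upstream of Pou5f1 stood in both tables, and the EpiLC call extended beyond it on both sides, across the promoter and the whole gene.

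The other 3 EpiLC enhancers of Pou5f1 had no overlap with an mESC enhancer. The farthest upstream, chr17:35429802-35430201, was 400 bp long, was centred 76.03 kb upstream of the TSS and fell in an untranslated region that GENCODE gives to H2-Q6, past the end of that gene in the deposited gene table. H2-Q6 is a major histocompatibility complex class I gene, and its TSS was 5.124 kb away. Of its bases 82% were soft-masked as repeats, and 79.7% of its 32-base words occurred elsewhere in the genome, so its position is uncertain. The next, chr17:35485552-35486526, was 975 bp long, intergenic and 19.99 kb upstream, with H2-Q10 as the gene of the nearest TSS at 15.95 kb. The downstream one, chr17:35546952-35550401, was 3450 bp long, intergenic and centred 42.64 kb from the TSS, and the nearest TSS was that of Cdsn, a gene of the cornified skin layer, at 3.452 kb. Pou5f1 was the gene with the nearest TSS for 1 of its 4 EpiLC enhancers and for its 1 mESC enhancer. The window is gene-dense: 10 other named gene rows with 8 symbols had a TSS within 100 kb. Among them were Tcf19 at 10.79 kb and Cchcr1 at 11.08 kb downstream.

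Sall4 lies on chromosome 2 at chr2:168748332-168767201 on the minus strand. The only other named gene of the deposited gene table with a TSS within 100 kb was Atp9a, which encodes a phospholipid flippase, at 25.07 kb downstream. Around the TSS, 5 EpiLC enhancers stood where the mESC table has 1. The mESC enhancer, at chr2:168764189-168791670, had 27482 bp and ran from 24469 bp upstream to 3012 bp downstream of the TSS. It was the 13th longest of the 8794 mESC enhancers, of which 0.136% were longer. The 5 EpiLC enhancers shared 12532 bp with it, or 45.6% of its length.

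Of these 5, the EpiLC enhancer at the TSS, chr2:168763577-168768026, had 4450 bp, reached from 825 bp upstream to 3624 bp downstream and overlapped the mESC enhancer over 86.25% of its length. The other 4 were intergenic and lay upstream, centred at 9.95 kb (2600 bp), 13.03 kb (2500 bp), 16.04 kb (1425 bp) and 23.91 kb (3225 bp) from the TSS. The 3 nearest of them lay wholly inside the mESC enhancer, and the farthest overlapped it over 67.26% of its length. Between the EpiLC calls, 4 stretches of 7825, 5550, 1050 and 525 bp stood in the mESC enhancer alone, and the longest ran from 8650 to 826 bp upstream of the TSS. The mESC table thus gives as 1 region an interval in which the EpiLC table has separate pieces. Whether the mESC region joins separate calls across gaps is not shown, so its mESC-only bases may include such gaps.

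A distal pair stood far upstream of Sall4. Its EpiLC enhancer, chr2:168838252-168842701, had 4450 bp and was centred 73.28 kb upstream, and its mESC enhancer, chr2:168838594-168842092, had 3499 bp, was centred 73.14 kb upstream and lay wholly inside the EpiLC one, covering 78.63% of it. The remaining 4 EpiLC enhancers of Sall4 had no overlap with an mESC enhancer. One lay 40.38 kb upstream (chr2:168806652-168808501, 1850 bp) and one in a Sall4 intron 4.75 kb downstream of the TSS (chr2:168761452-168763451, 2000 bp). The last pair, centred 83.35 kb and 97.15 kb downstream, fell in an Atp9a intron (chr2:168682802-168684901, 2100 bp) and within 1 kb of an Atp9a TSS of the GENCODE annotation (chr2:168669227-168670876, 1650 bp). Sall4 was the gene with the nearest TSS for 8 of its 10 EpiLC enhancers and for both mESC enhancers. Of the 18870 bp gene body, EpiLC enhancers covered 29.81% and mESC enhancers 15.97%.

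**Figure D1:**
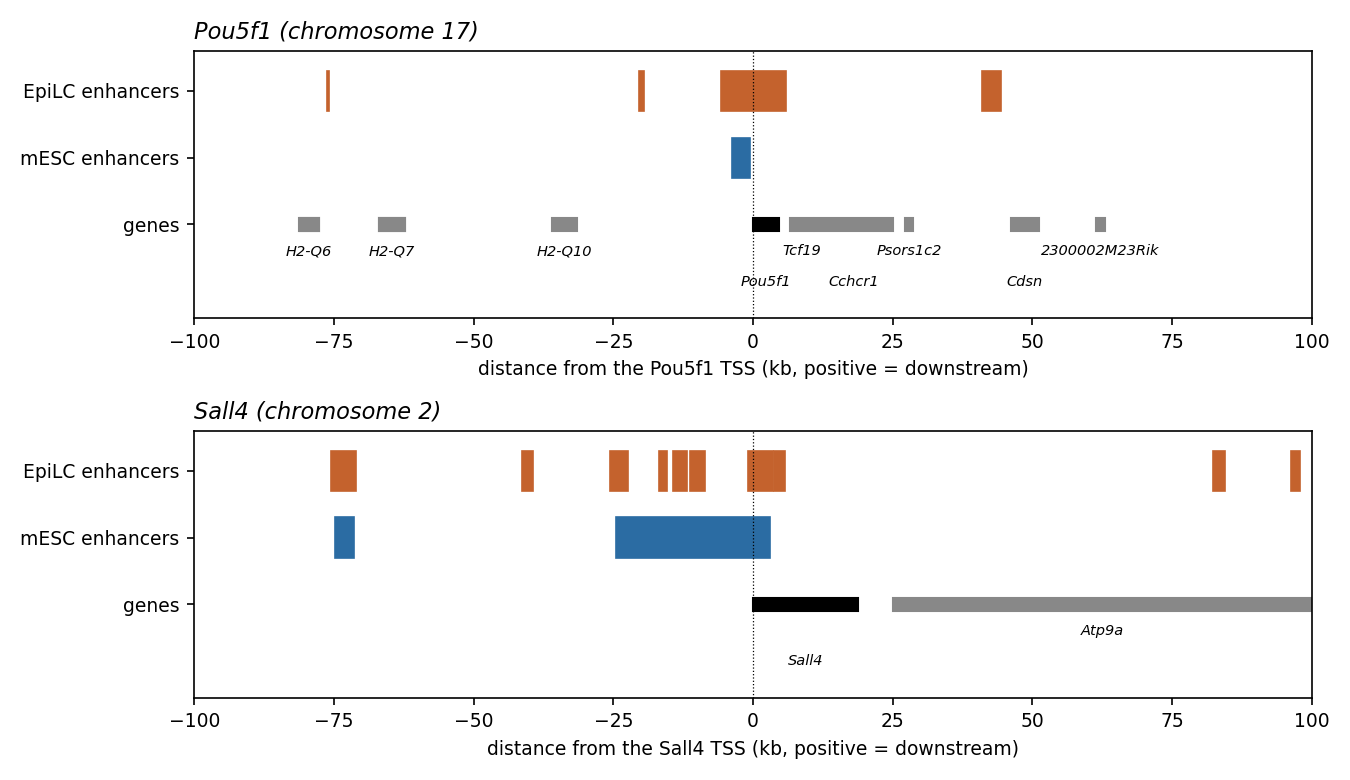
Enhancers of the EpiLC table (orange) and of the mESC table (blue) and the named genes of the gene table, by distance from the TSS in kb. The upper panel shows Pou5f1 and the lower panel Sall4. Each gene's own direction is positive, and Atp9a is drawn up to the edge of the window. The EpiLC enhancer at Pou5f1 covers the whole gene and the mESC enhancer sits upstream of it, while at Sall4 1 mESC enhancer of 27482 bp overlaps 5 EpiLC enhancers, 3 of them over their whole length.

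The overlap between the tables was summed over bases. At Pou5f1 the enhancers of either table covered 16400 bp, of which 80.34% (13176 bp) stood in EpiLC enhancers alone, 19.66% (3224 bp) in both and 0% in mESC enhancers alone. At Sall4 they covered 41200 bp, of which 24.8% (10219 bp) stood in EpiLC enhancers alone, 38.91% (16031 bp) in both and 36.29% (14950 bp) in mESC enhancers alone. Both genes therefore held bases called in EpiLCs alone, and only Sall4 of the 2 held bases called in mESCs alone. All of its mESC-only bases lay in the mESC enhancer of 27482 bp.

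Counted by region, 7 of the 14 EpiLC enhancers overlapped an mESC enhancer by at least 1 bp, 1 of 4 at Pou5f1 and 6 of 10 at Sall4, against 25.9% of all EpiLC enhancers. In the mESC table, 3 of the 3 enhancers had an EpiLC partner, against 42.9% over the whole table. Of the 6 at Sall4, 5 overlapped the same mESC enhancer. Longer regions overlapped more often in both tables. Among EpiLC enhancers of at least 2300 bp, the median of the 14 themselves, 6 of the 7 at the 2 genes overlapped an mESC enhancer. The share was 36.5% of the 5863 in the table. Most of the 6 overlapped the same mESC enhancer at Sall4, so they are not separate cases, and the difference was not tested. Among the 1020 mESC enhancers of at least 3224 bp, the length of the shortest of the 3, 74.8% overlapped an EpiLC enhancer. The count of 3 of 3 is close to that share and is no result about these genes. When an overlap had to reach 50% of both regions, 0 enhancers at Pou5f1 and 1 at Sall4 were left with a partner in the EpiLC table, and the same numbers in the mESC table.

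The mESC table is not ordered by position throughout. Its chromosome order runs through once in an opening block of rows and then restarts, and the rows of that block had a median length of 8667 bp, against 703 bp for the rest. The table does not name this block. As background, the publication behind the table also defined super-enhancers, which are long clusters of enhancers with high Mediator signal, and no source used here says whether the block is that set. The mESC enhancer upstream of Pou5f1 and the long one at Sall4 both stood in this block, while the distal mESC enhancer of Sall4 did not. Of all gene rows, 3.19% (775) had a region of this block within 100 kb. In the block, 96.5% of rows (223) overlapped an EpiLC enhancer, so overlap is the usual case in this block.

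Lengths at the 2 genes spread over most of the range of the EpiLC table. The EpiLC enhancers had a median of 2212.5 bp at Pou5f1, between 400 and 11575 bp, and of 2300 bp at Sall4, between 1425 and 4450 bp, against a median of 1750 bp (quartiles 1085 and 2900) over all EpiLC enhancers. The mESC enhancers had 3224 bp at Pou5f1 and 3499 and 27482 bp at Sall4, against a median of 711 bp (quartiles 572 and 919) over all mESC enhancers. Of all mESC enhancers, 88.4%, 88.7% and 99.85% were shorter than these 3. The starts of 98.2% of EpiLC enhancers fall on 1 grid of 25 bp, so their lengths are stepped, and the 2 tables' lengths are not on 1 scale.

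**Figure D2:**
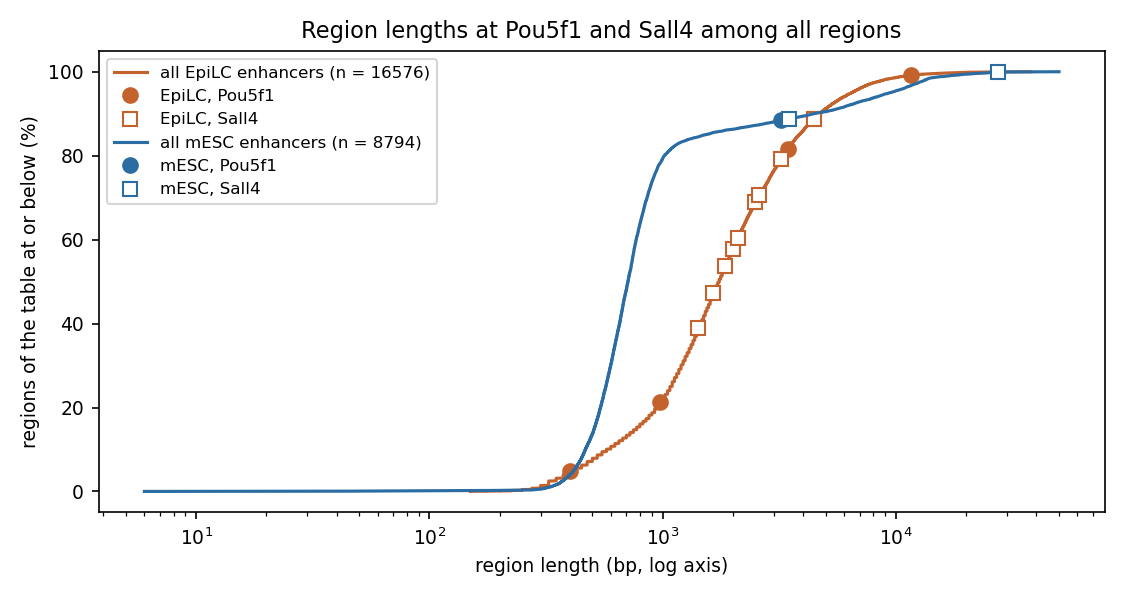
Cumulative share of regions by length in bp on a log axis, for all EpiLC enhancers (orange line) and all mESC enhancers (blue line), with the enhancers of Pou5f1 as filled circles and those of Sall4 as open squares. The 14 EpiLC points run from 400 to 11575 bp, and the 3 mESC points lie at 3224, 3499 and 27482 bp, to the right of the steep part of the mESC curve.

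By position, 3 of the 14 EpiLC enhancers and 0 of the 3 mESC enhancers were centred within 1 kb of a GENCODE TSS, against 25.7% of all EpiLC and 8.9% of all mESC enhancers. The rest of the EpiLC enhancers were intergenic (8), intronic (2) or in an untranslated region (1), and all 3 mESC enhancers were centred in intergenic sequence, although the long one at Sall4 covered the TSS. These shares rest on 14 and 3 regions and were not tested.

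Base composition set the enhancer at the Sall4 TSS apart from its neighbours upstream. This EpiLC enhancer had 53.35% G and C and an observed-over-expected CpG ratio of 0.629, above 91.2% of EpiLC enhancers, whereas the EpiLC enhancers centred 9.95, 13.03, 16.04 and 23.91 kb upstream had ratios of 0.110, 0.249, 0.244 and 0.205, above 8.24%, 51.77%, 50.05% and 36.75% of them. The EpiLC enhancer that spans Pou5f1 had 51.24% G and C and a ratio of 0.227, above 44.5% of EpiLC enhancers. In the mESC table, the enhancer upstream of Pou5f1 had 51.36% G and C and a ratio of 0.166, above 41.35% of mESC enhancers. The 400 bp EpiLC enhancer far upstream of Pou5f1 had a ratio of 0.611, above 90.3% of EpiLC enhancers. The distal pair of Sall4 had a ratio of 0.464 in the EpiLC enhancer, above 79.25% of its table, and of 0.464 in the mESC enhancer, above 96.3% of its table. Of the bases, 25.34% were soft-masked as repeats in the EpiLC enhancer spanning Pou5f1 and 39.8% in the long mESC enhancer at Sall4.

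The same counts were made for all 24263 gene rows kept. At least 1 EpiLC enhancer lay within 100 kb of 74% of rows and at least 1 mESC enhancer within 100 kb of 55.3%, so having one is common. Pou5f1, with 4 EpiLC enhancers, had more than 74.9% of rows, and with 1 mESC enhancer it had more than 44.74%, in a gene set with medians of 2 and 1. Sall4, with 10 EpiLC enhancers, had more than 98.98% of rows, and only 135 rows had a higher count. Its 2 mESC enhancers were more than those of 76.65% of rows.

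Covered bases gave another order than counts. EpiLC enhancers covered 16400 bp within 100 kb of Pou5f1 and 26250 bp within 100 kb of Sall4, more than for 90.29% and 96.58% of rows, against a median of 3000 bp. The mESC enhancers covered 3224 bp at Pou5f1 and 30981 bp at Sall4, more than for 87.96% and 99.88% of rows, against a median of 524 bp. More mESC bases than at Sall4 stood at 27 rows. All of the 3224 bp at Pou5f1 and 27482 bp of those at Sall4 came from the opening block of the mESC table. These ranks were not recomputed without that block. Bases in both tables came to 3224 bp at Pou5f1, above 94.5% of rows, and to 16031 bp at Sall4, above 99.69%, where the median row had 0. Rows of neighbouring genes share enhancers, and the percentages describe a place in a list.

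**Figure D3:**
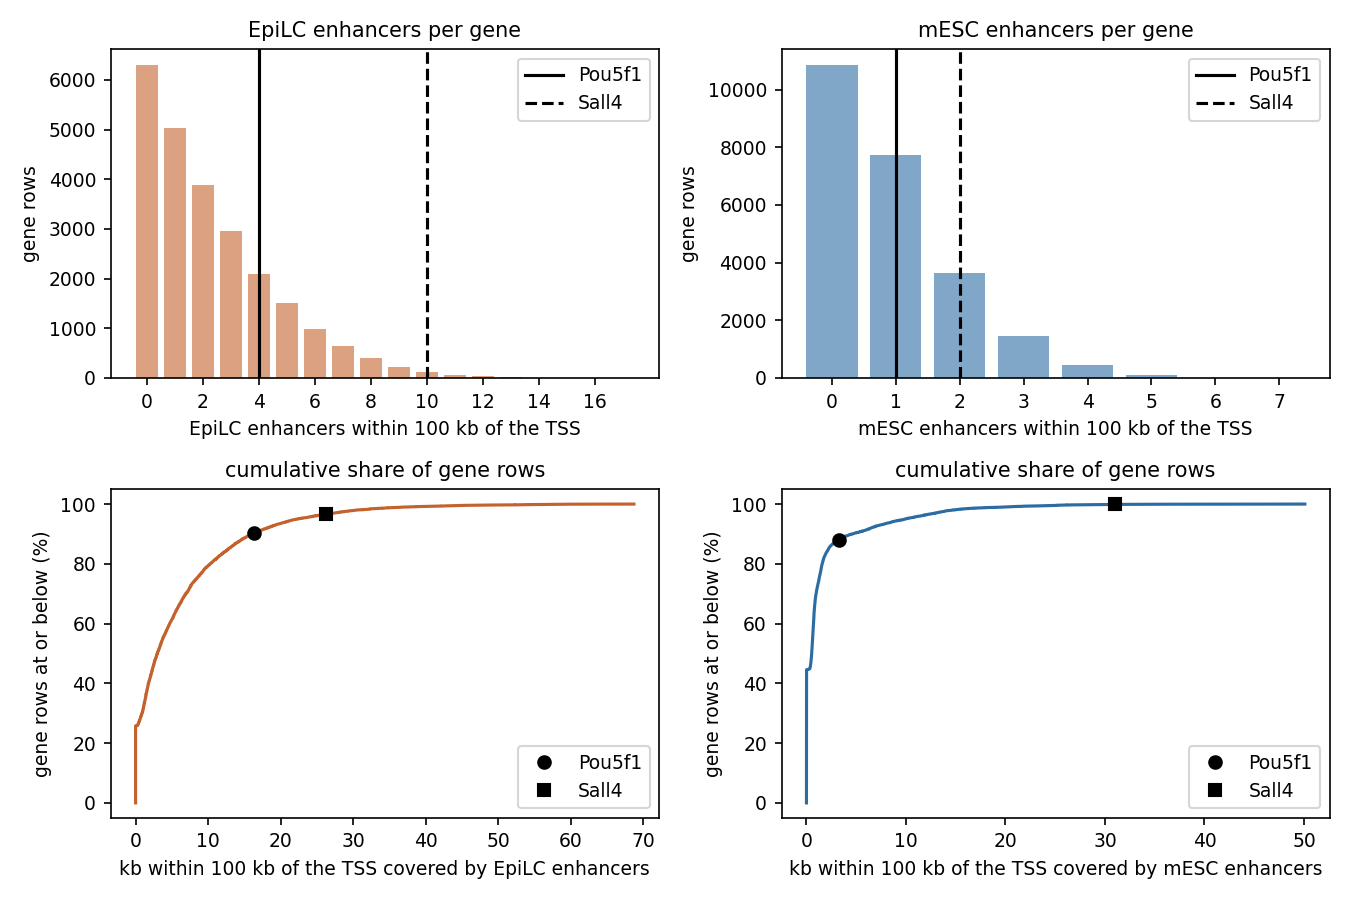
Upper panels, number of gene rows by the number of EpiLC enhancers (left) and mESC enhancers (right) within 100 kb of the TSS; lower panels, cumulative percent of gene rows by the kb these enhancers cover. Lines and points mark Pou5f1 (4 EpiLC, 1 mESC) and Sall4 (10 EpiLC, 2 mESC), and Sall4 lies at the upper end of the covered bases in both tables.

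Among 25 other pluripotency genes, 23 had an EpiLC enhancer and 24 an mESC enhancer within 100 kb, against 74% and 55.3% of all gene rows. Their medians were 6 and 3 per gene, against 2 and 1 over all rows. Pou5f1 stood low in this list. Its 4 EpiLC enhancers were exceeded by 15 of the 25 genes and its 1 mESC enhancer by 22. Its covered bases were exceeded by 13 genes in the EpiLC table and by 20 in the mESC table. Nanog, the homeobox partner of OCT4, had 6 EpiLC and 5 mESC enhancers, and Sox2, the partner on the composite element, had 9 EpiLC and 3 mESC enhancers. These are window counts that neighbouring genes can share. Nanog had the nearest TSS for only 1 of its 6 EpiLC and 1 of its 5 mESC enhancers, the same numbers as Pou5f1. For Sox2 the numbers were 6 of 9 and 2 of 3.

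Sall4 stood high in the same list by EpiLC count and by mESC bases, though not by mESC count. Its EpiLC count of 10 was exceeded by 1 gene, Zscan10, a zinc finger gene of pluripotent cells, with 11. Zscan10 had the nearest TSS for 2 of its 11, and Sall4 for 8 of its 10. The mESC count of Sall4, 2, was exceeded by 14 genes and equalled by 8, against a list median of 3. Its 30.98 kb of mESC enhancers were exceeded by 3 genes, which were Tbx3 (50.05 kb) and Prdm14 (50.09 kb), both regulators of the naive state, and Otx2 (34.6 kb), a homeobox gene of the epiblast. In the EpiLC table its 26.25 kb were exceeded by 7 genes.

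EpiLC enhancers covered more bases than mESC enhancers at 16 of the 25 genes and fewer at 8. Esrrb had 0 in both tables within 100 kb of its TSS, a window that ends inside this long gene. Pou5f1 was on the first side, with 16.4 kb in EpiLC and 3.224 kb in mESC enhancers, and Sall4 on the second, with 26.25 kb in EpiLC and 30.98 kb in mESC enhancers. Over all gene rows the median cover was also larger in the EpiLC table, 3000 bp against 524 bp. The share of all rows on each side was not computed, so the 16 and 8 are no result about this list. Klf4, a Krüppel-like factor of naive cells, had 2 enhancers in each table, and Tbx3 had 3 in each, with mESC-only bases making up most of their cover. Each mESC enhancer at Pou5f1 and at Sall4 overlapped an EpiLC enhancer, and the same held at 11 of the 24 list genes that had an mESC enhancer. The share over all gene rows with an mESC enhancer was not computed. Dppa2 and Dppa4 have the same counts and covered bases, and each is counted among the 16 genes above and among these 11.

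**Figure D4:**
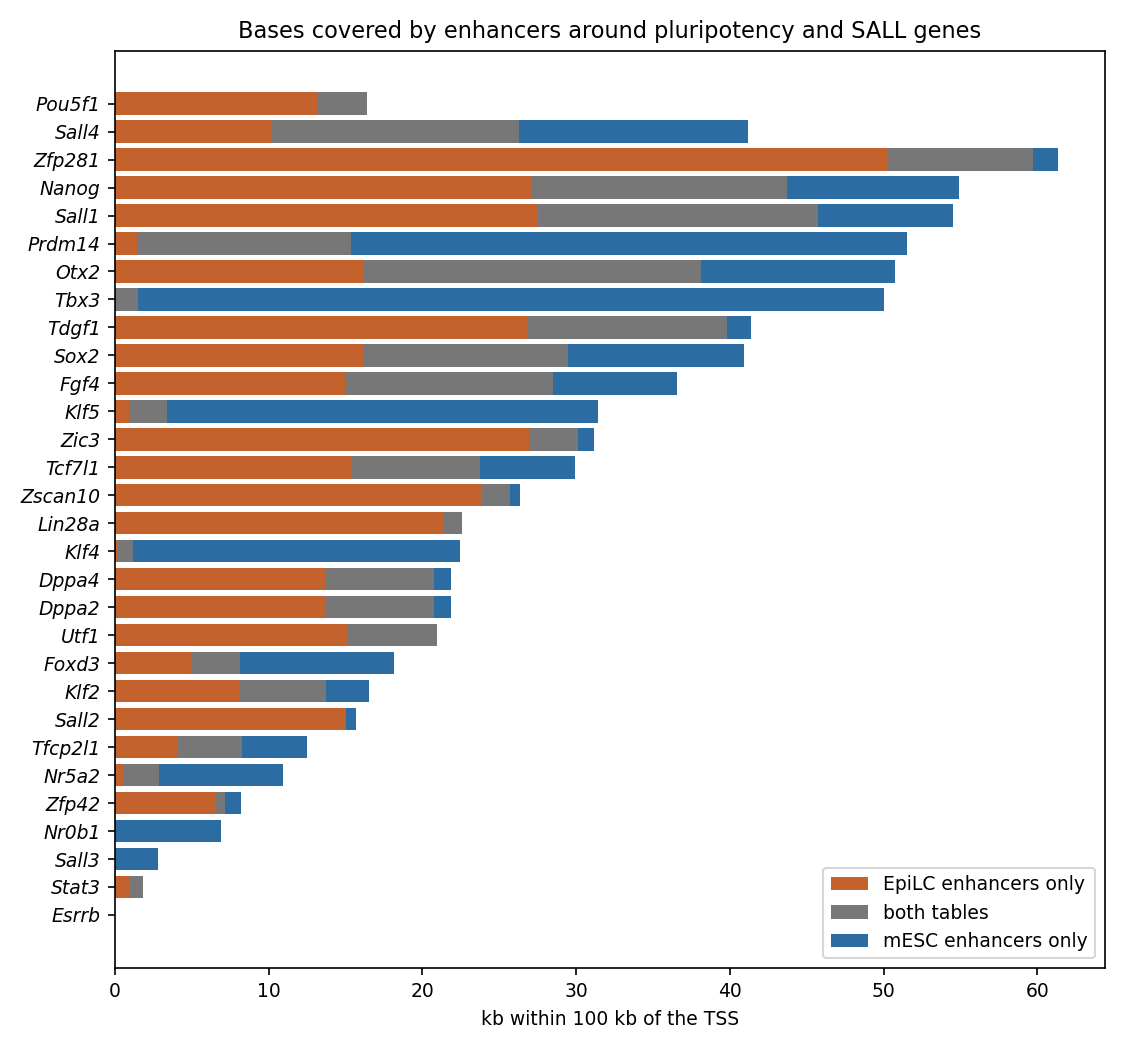
Stacked bars of the kb within 100 kb of the TSS covered by EpiLC enhancers only (orange), by both tables (grey) and by mESC enhancers only (blue), for Pou5f1 and Sall4 at the top and then for the pluripotency and SALL genes by total. Pou5f1 has 13.176, 3.224 and 0 kb of the 3 kinds, and Sall4 has 10.219, 16.031 and 14.95 kb.

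Among the paralogues of Sall4, Sall1 also had 10 EpiLC enhancers and had 3 mESC enhancers, Sall2 had 4 and 1, and Sall3 had 0 and 2. Of 13 other POU genes found in the gene table, 7 had an EpiLC enhancer and 9 an mESC enhancer, against 74% and 55.3% of all gene rows. Their medians were 1 and 1. The highest EpiLC counts among them were 8 at Pou3f1, which also had 0 mESC enhancers and encodes the POU factor OCT6 of the epiblast and nervous system, and 6 at Pou2f3. Pou5f1 had more bases in both tables, 3.224 kb, than 12 of these 13 genes. Of 11 genes of NuRD, the complex that SALL4 binds, 11 had an EpiLC enhancer and 8 an mESC enhancer, against 74% and 55.3% of all gene rows. Their medians were 4 and 1, and their EpiLC counts ran from 1 to 10. Hdac1, a deacetylase of the complex, had 10 and 1, its fellow deacetylase gene Hdac2 had 1 and 1, and Chd4, the remodelling ATPase, had 7 and 0. Hdac1 had the nearest TSS for 1 of its 10 EpiLC enhancers and Chd4 for 1 of its 7.

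Likeness between genes was measured as the summed absolute difference of 4 counts, namely EpiLC enhancers with and without overlap and mESC enhancers with and without overlap. Only named rows with a TSS over 200 kb away or on another chromosome were compared, since near neighbours share the same enhancers. Atp9a had the same 4 counts as Sall4, and H2-Q7, H2-Q10, Tcf19 and Cchcr1 the same as Pou5f1. Among the rows compared, 388 had the same 4 counts as Pou5f1, and the nearest in shared bases were H2af-ps2, Dpys, Vrk3, Zfp473 and Prc1. For Sall4, 0 of the rows compared had the same 4 counts. Clybl, Mir124a-1, Mir124a-1hg and Mir3078 differed by 1, and 1700108J01Rik by 2. The 3 microRNA loci of this set are neighbours on chromosome 14 and share their enhancers. Elsewhere on that chromosome, Clybl and 1700108J01Rik are neighbours with overlapping windows. In the set of Pou5f1, Vrk3 and Zfp473 are neighbours on chromosome 7 with the same counts and covered bases.

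Words of 12 transcription factor sites were searched on both strands of the 17 enhancers, and each count was set beside the share of windows of the same length, centred on all regions of the same table, that hold the word. The words were TTGTNATGC (the core of the SOX2-OCT4 composite), ATGCAAAT (octamer), ATGCTAAT (an octamer variant), TCAAGGTCA (ESRRB and NR5A2), GGGTGTGG (KLF), GGGGCGGGG (SP and KLF), CTAATCC (OTX2), CAGCAGG (ZIC), TGANTCA (AP-1), TGGAATGT (TEAD), TTCCNGGAA (STAT) and CCCTNGTGG (CTCF core). No matches of different words overlapped. A match is a description of letters and not of binding. In all, 74 distinct sites were found, 24 at Pou5f1 and 50 at Sall4, and 14 of them were in repeat-masked bases.

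At Pou5f1 the SOX2-OCT4 core stood at 3 places. The first, 1975 bp upstream of the TSS, lay in the stretch held by both tables and so counts for the EpiLC and for the mESC enhancer, as printed above. A KLF word lay 2049 bp upstream in the same printed stretch. The second core lay 5369 bp downstream of the TSS, past the end of the gene and inside the EpiLC enhancer alone, and the third lay 43229 bp downstream in the distal EpiLC enhancer. The word was present in 28% of EpiLC windows as long as the enhancer spanning the gene, in 12.4% of those as long as the distal one, and in 14.2% of mESC windows as long as the mESC enhancer.

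The octamer itself stood once, 3954 bp downstream of the TSS in a coding exon of Pou5f1, within the EpiLC enhancer, and 53.7% of EpiLC windows of that length hold it. The ESRRB word stood in the EpiLC enhancer 19.99 kb upstream, a word held by 3.5% of EpiLC windows of that length. At the promoter, the SP/KLF word was centred 42 bp upstream of the TSS, and 11.4% of the 32851 RefSeq promoters of mouse hold it. Sites of all 12 words came to 1.21 per kb in the EpiLC-only stretches (16 sites) and 2.48 per kb in the stretch of both tables (8 sites). These are counts of few sites, and the 2 rates were not tested.

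At Sall4 neither the SOX2-OCT4 core nor the octamer was found in any of the 12 enhancers. The core is held by 7.41% to 14.4% of EpiLC windows as long as the 10 EpiLC enhancers, and by 14.9% and 53.5% of mESC windows as long as the 2 mESC enhancers. For the octamer these shares are 11.6% to 26.2%, and 26.6% and 83.7%. The octamer variant stood at 3 places. One was 2488 bp downstream of the TSS in an intron and one 127 bp upstream of it, both in stretches of both tables, and one was 40025 bp upstream in an EpiLC enhancer without mESC overlap. The variant is held by 65.8% of mESC windows as long as the 27482 bp enhancer and by 8.87% of EpiLC windows as long as the one at 40.38 kb. The 2 ESRRB words, 2631 and 19140 bp upstream, fell in mESC-only stretches, both in repeat-masked bases, and 52.9% of mESC windows of that length hold the word.

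The KLF word stood upstream of the Sall4 TSS and in the farthest downstream EpiLC enhancer, and the SP/KLF word in the distal pair alone of the 12 enhancers. KLF words lay 16274 bp upstream in a stretch of both tables and 18082 and 19714 bp upstream in an mESC-only stretch, and 85.5% of mESC windows of that length hold one. In the distal pair, a TEAD word 73028 bp upstream and an SP/KLF word 73017 bp upstream lay 3 bases apart, as printed above, and further SP/KLF words lay 72690 and 71215 bp upstream, the last in the EpiLC enhancer alone. The SP/KLF words at 73017 and 72690 bp were in repeat-masked bases. The SP/KLF, TEAD and STAT words are held by 21.4%, 19.8% and 12.5% of EpiLC windows as long as the EpiLC enhancer of the pair, and by 11.6%, 16.5% and 10.6% of mESC windows as long as the mESC enhancer. Sites came to 1.47 per kb in EpiLC-only stretches (15 sites), 1.12 per kb in stretches of both tables (18 sites) and 1.07 per kb in mESC-only stretches (16 sites), with 1 more site across an edge.

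**Figure D5:**
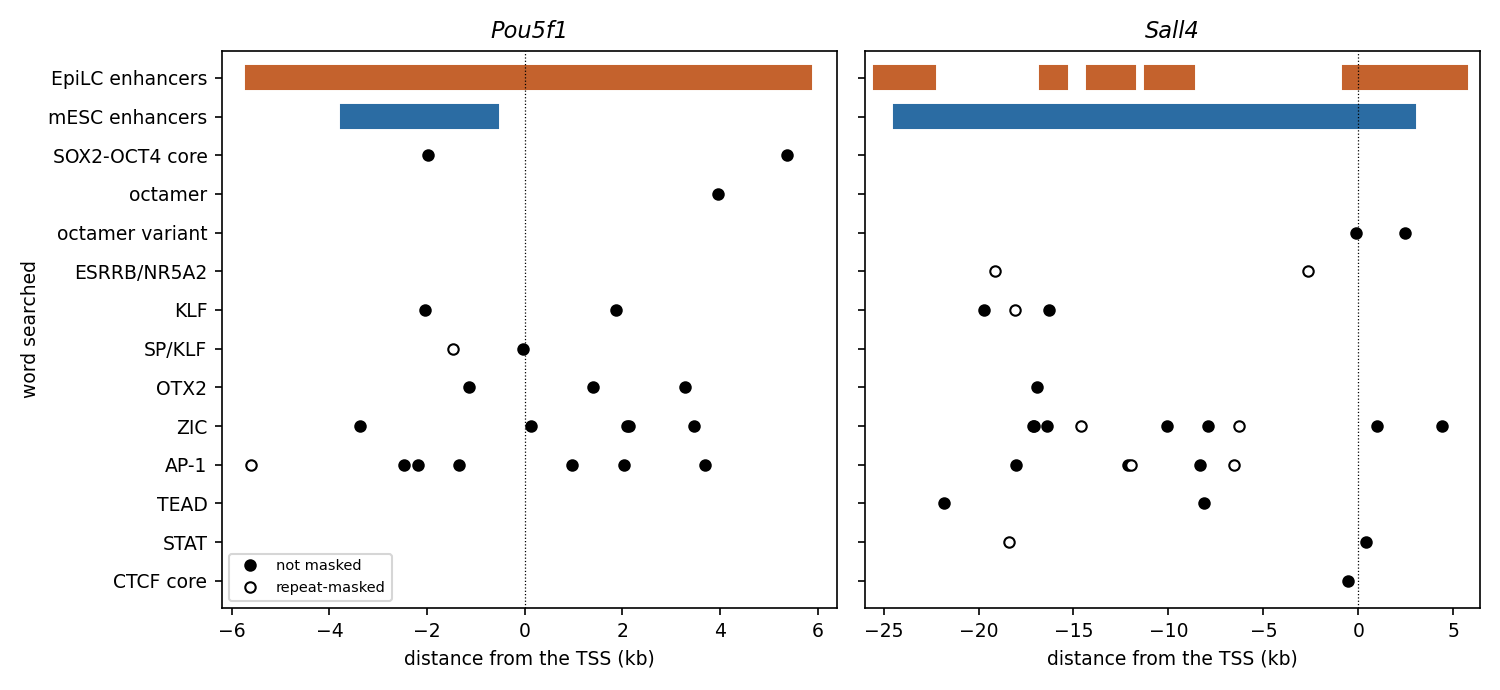
Places of the 12 words (rows) by distance from the TSS in kb around Pou5f1 (left) and Sall4 (right), with the EpiLC enhancers above the mESC enhancers; open points lie in repeat-masked bases. The SOX2-OCT4 core stands 1975 bp upstream and 5369 bp downstream at Pou5f1 and has no point at Sall4.

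Over the 17 enhancers, the number that held a word was set beside the sum of the shares of same-length windows. The SOX2-OCT4 core stood in 3 enhancers (2 EpiLC and 1 mESC), against a sum of 2.35, the octamer in 1 against 4.01 and its variant in 3 against 2.71. ZIC words stood in 12 against 10.1, AP-1 in 7 against 9.34, OTX2 in 5 against 4.26, KLF in 5 against 4.51 and ESRRB in 2 against 2.03. SP/KLF words stood in 4 against 3.03, TEAD in 4 against 2.91, STAT in 4 against 1.96 and the CTCF core in 2 against 2.36. Overlapping EpiLC and mESC enhancers share bases, so a site in both counts for each.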

How the data were processed

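The deposited tables hold positions only (chromosome, start, end and strand, mm10), a unit with no usual name, and no signal, so sequencing depth is unknown and the signal of the 52 libraries was not analysed here. Per the series' design text, the authors lifted both published enhancer sets to mm10 and took the gene set from their earlier work. That text also gives inputs of 100, 200 and 1000 µg of chromatin and a 5% Drosophila spike-in. Builds mm10 and dm6 and the tools Bowtie2 2.3.4.1, Trimmomatic 0.38 and bedtools 2.29.2 are named, per the submitters' processing notes, with no role stated.

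Coordinates are printed 1-based. Gene starts count from 0 in the deposited table: 12038 rows matched a RefSeq gene after adding 1 to the start, and 329 without. Whether enhancer starts count from 0 or 1 is not shown by the values, and 0 was assumed, with 1 bp of doubt. Gene rows were named by exact match to RefSeq or GENCODE M21, or, failing that, where intersection over union reached 0.8, and 24263 of 24402 rows were kept. Of the rows kept, 23798 had a name, and neighbours and most like genes were sought among these alone. The TSS is the start on the plus and the end on the minus strand. Features at region centres came from GENCODE M21, with 1 kb around a TSS as promoter. Counts, lengths, bases and words were computed with Python 3.11.15, pandas 2.3.3 and pysam 0.24.0 and tested on simulated data. Named are the 2 genes, their neighbours within 100 kb, genes of fixed lists and the 5 most like genes over 200 kb away. The enhancers of the 2 genes and all gene lists were chosen with earlier results of these data known. Alternatives changed the window, the overlap rule, the rows used and the stretch searched for words.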

Additional observations from a re-analysis of the deposited data

How the results depend on the processing

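Of 86 alternative values, 36 stayed within the limit set and 50 moved. A change of direction was not looked for. Counts were held to a fixed ratio, and percents of gene rows to an exact binomial interval that treats the rows as independent. The split between values that stayed and values that moved therefore mixes unlike limits. The regions carry no depth, and the counts have no error of their own. With windows of 200 kb, 7 EpiLC enhancers lay at Pou5f1. Assigning each enhancer to the nearest TSS left 1, and a window of 50 kb left 1 mESC enhancer at Sall4. Leaving out the opening block of the mESC table, 0 mESC enhancers were left at Pou5f1 and 1 at Sall4. The overlap counts then fell to 0 in both tables at Pou5f1 and to 1 in both tables at Sall4, and they had the same values (0, 0, 1 and 1) with at least 50% reciprocal overlap and with windows of 500 bp around the centres. The 1 pair left at Sall4 under each of these was the distal one. The percent of gene rows with less in EpiLC than Pou5f1 was 82.3 at 50 kb, 90.3 by covered bases and 76.8 with 1 TSS per 10 kb, and in mESC it was 64.3 at 50 kb, 23.9 at 200 kb and 88.0 by covered bases. For Sall4 it was 99.3, 95.0 and 96.6 in EpiLC at 50 kb, at 200 kb and by covered bases, and 64.3, 71.8 and 99.9 in mESC. In windows of 300 and of 1000 bp around the centres, the number of enhancers with a word was 0 and 1 for the SOX2-OCT4 core and for the octamer variant, 0 and 0 for the octamer, OTX2, STAT and CTCF words, 1 and 1 for ESRRB and AP-1, and 2 and 3 for KLF. At 300 bp it was 2 for SP/KLF, 4 for ZIC and 1 for TEAD. No paired analysis was possible because the deposited tables hold no value per library and the results come from no test.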
